A study of Mus musculus with 2 samples.

Results

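The family of miR-15, miR-16, miR-195a and miR-497a was followed in small RNA libraries of mouse adrenal gland. Its 6 miRNA genes, Mir15a, Mir16-1, Mir15b, Mir16-2, Mir195a and Mir497, were taken by symbol from the 2202 miRNA genes of the deposited count tables, and all 6 were counted in both libraries. The tissue came from male B6CASTF1/J mice on postnatal day 4, F1 hybrids of C57BL/6J, an inbred laboratory strain, and CAST/EiJ, an inbred strain of wild origin. The series held 1 group of 2 libraries, labelled biological replicates 1 and 2 and made from males numbered 3 and 4, with total RNA as the molecule and no treatment in the labels. The donor label was the same for both, and only the numbers of the males mark them as 2 animals. No comparison of conditions was possible.

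MicroRNAs are short RNAs, cut from a hairpin precursor, that guide repression of messenger RNAs through pairing of the seed, bases 2 to 8 of the mature strand. Either arm of the hairpin can give a mature form, named 5p or 3p. The miR-15/16 family is known for restraint of the cell cycle through messengers such as those of cyclins D1 and E1, and of cell survival through Bcl2. Its genes lie as linked pairs in the genome. The Mir15a/Mir16-1 pair is known from its loss in human chronic lymphocytic leukaemia, and miR-195 from the arrest of heart muscle cell division after birth. The adrenal cortex is still growing at this age.

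The mature 5p forms are shown because the shared seed defines the family, with the seed in capitals and the 5′ end at the left. All 6 genes matched entries for mature forms in the RefSeq table (build GRCm38.p6), which held 11 different mature forms for them.
miR-15a-5p: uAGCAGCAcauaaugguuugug
miR-15b-5p: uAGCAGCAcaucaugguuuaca
miR-16-5p: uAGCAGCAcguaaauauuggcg
miR-195a-5p: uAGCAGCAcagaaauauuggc
miR-497a-5p: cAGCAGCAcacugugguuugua

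The 5 sequences had AGCAGCA as their seed and differed downstream of it, and miR-497a-5p also differed at its first base. The closest were miR-16-5p and miR-195a-5p, with 19 of 21 compared bases alike and the substitutions G10A and U11G, counted from the 5′ end of miR-16-5p. The forms miR-15a-5p and miR-15b-5p had 18 of 22 bases alike, with A12C, G20A, U21C and G22A counted from the 5′ end of miR-15a-5p. The forms miR-16-5p and miR-497a-5p were the least alike, at 11 of 22 bases.

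The 3p forms did not carry this seed, and they are shown for the miR-16 genes because they tell the 2 loci apart.
miR-16-1-3p: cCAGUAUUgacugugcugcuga
miR-16-2-3p: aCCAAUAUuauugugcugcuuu

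The 5p form of miR-16 was identical in Mir16-1 and Mir16-2. The hairpins of both genes are shown with their longest common stretch, of 23 bases, in capitals.
Mir16-1 hairpin: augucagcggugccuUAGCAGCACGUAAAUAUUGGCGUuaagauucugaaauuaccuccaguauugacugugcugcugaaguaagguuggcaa
Mir16-2 hairpin: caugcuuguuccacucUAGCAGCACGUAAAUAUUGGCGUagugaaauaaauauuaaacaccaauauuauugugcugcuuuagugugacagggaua

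A read that lies wholly within this stretch fits both genes. In the deposited tables, reads that fit more than 1 locus were set apart and given to no gene. The counts of Mir16-1 and Mir16-2 therefore lack such reads, and the level of miR-16-5p cannot be read from them. Every other mature form of the members was listed for 1 gene only in the RefSeq table. Stretches shared with another locus were searched only among the hairpins of that table. The longest found was 16 bases for Mir195a, with Mir195b, 12 for Mir497 and 11 for Mir15b. The table held a hairpin for 5 of the 6 genes, all but Mir15a, so stretches shared with Mir15a were not searched.

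Coordinates below are on mm10, counted from 1, with GENCODE M21 annotation. Mir15a (ENSMUSG00000093007.1) lies on the minus strand of chromosome 14, 61632027 to 61632110, in an intron of the noncoding gene Dleu2. Mir16-1 (ENSMUSG00000092995.1) lies 54 bases away at 61631880 to 61631972, and 13 of its 93 bases overlap an exon of 1 Dleu2 transcript. Mir15b (ENSMUSG00000065580.2) and Mir16-2 (ENSMUSG00000065606.1) lie on the plus strand of chromosome 3, at 69009772 to 69009835 and 69009902 to 69009996. Both are in an intron of Smc4, which encodes a condensin subunit needed for chromosome compaction at mitosis. Mir497 (ENSMUSG00000105220.1) and Mir195a (ENSMUSG00000065411.2) lie on the plus strand of chromosome 11, at 70234717 to 70234800 and 70235042 to 70235135. Neither has a host gene on its own strand, Mir497 is covered on the other strand by the miRNA gene Mir497b, and the protein-coding gene 0610010K14Rik, also on the other strand, ends 70 bases from Mir195a.

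The libraries held 3961630 sense-strand miRNA counts in replicate 1 and 1686822 in replicate 2, so counting error is wider in replicate 2. Levels are counts scaled to a total of 1000000 sense-strand counts (CPM), and no count at all would allow a level of up to 0.757 CPM in replicate 1 and 1.78 CPM in replicate 2. Neuroendocrine miRNAs, which mark the chromaffin cells of the medulla, were counted for 4 of 4 genes, with a sum of 36299 and 46670 CPM in replicates 1 and 2. The endothelial marker was at 65222 and 83391 CPM, and 2 of 2 stromal markers summed to 42282 and 38444 CPM. Markers of other tissues differed between the libraries. All 3 red blood cell markers were counted, and they summed to 7248 CPM in replicate 1 but to 595 in replicate 2. The liver marker Mir122 was at 1299 and 20602 CPM. Of 8 striated muscle markers, 3 were counted at 10 or more in both libraries and 1 was at 0 in both, with sums of 1143 and 2697 CPM. Mir206 alone was at 1130 and 2646 CPM. Reads that fit more than 1 locus are in no marker count, so low counts do not show absence. White blood cell, kidney and epithelial markers summed to 858 and 1338, 241 and 379, and 741 and 279 CPM, in the same order. The kidney, white-cell and neuroendocrine sums hide single markers that went both ways, named after their values were seen. By the library test described with the members, 2 of 5 kidney markers were called higher in replicate 2 and 2 lower. Of all genes tested, 9.65% were called higher and 8.66% lower. The higher markers were Mir192 (log2 ratio 1.93) and Mir194-2 (1.98). The lower markers were Mir194-1 (-3.24) and Mir215 (-6.06), each with 1 count in replicate 2, so their ratios depend on the 0.5 CPM added. Because reads that fit more than 1 locus are missing, the opposite calls of Mir194-1 and Mir194-2 are uncertain. Of the white-cell markers, Mir223 (1.48) was called higher, and Mir155 (-0.76) was not called. Among the neuroendocrine markers, Mir7-2 (-1.03) was called lower, and Mir375 (0.45), Mir7-1 (0.03) and Mir7b (-0.28) were not called. Mir375 made up most of the neuroendocrine sum, at 31129 and 42377 CPM. All 5 epithelial markers were lower in replicate 2, and Mir200b (-3.07) and Mir200c (-1.25) were called.

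Together the 6 genes held 24264 counts in replicate 1 and 10658 in replicate 2. This was 6125 CPM (95% exact interval 6048 to 6202) and 6318 CPM (6199 to 6439), a mean of 0.622% ± 0.0137 of all miRNA counts (SD, n = 2). The sum lacks the reads that fit both miR-16 genes. As counted, it was nearly the same in the 2 libraries. The replicate 2 value was 1.03 times that of replicate 1 (1.01 to 1.06, counting error only). The direction of this small difference rests on the scaling: its log2 value was 0.04 on library totals and -0.06 with TMM scaling in edgeR (a trimmed mean of the ratios of genes), which shifts the log2 ratio of every gene by -0.11. Without Mir16-1 and Mir16-2 the log2 value was 0.28. Reads are not independent molecules, and all intervals and limits here cover counting error only.

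Mir15a, which gives miR-15a, was at 1455 CPM in replicate 1 and 2019 CPM in replicate 2, from 5766 and 3406 counts. Its mean of 1737 ± 399 CPM (SD, n = 2) was the highest counted in the family, and it stood at rank 71 and rank 59 among all miRNA genes. Mir16-1, its partner in Dleu2, was at 1831 and 1277 CPM, from 7254 and 2154 counts, with a mean of 1554 ± 392 CPM. As counted, Mir15a was thus higher in replicate 2 and Mir16-1 in replicate 1, so each led the family's counts in a different library. The count of Mir16-1 lacks the reads that fit both miR-16 genes, so its place among the members is uncertain.

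Mir15b, in the Smc4 intron, was at 1054 CPM in replicate 1 and 1855 CPM in replicate 2, from 4175 and 3129 counts. Its mean was 1454 ± 566 CPM (SD, n = 2). Its partner Mir16-2 was counted far lower, at 457 and 376 CPM, from 1812 and 635 counts, with a mean of 417 ± 57.2 CPM. That count lacks the reads that fit both miR-16 genes. As in the Dleu2 pair, the miR-15 gene was higher in replicate 2 and the miR-16 gene was lower there.

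Mir195a was at 988 CPM in replicate 1 and 554 CPM in replicate 2, from 3914 and 935 counts, with a mean of 771 ± 307 CPM (SD, n = 2). Mir497 was the lowest of the family at 339 and 237 CPM, from 1343 and 399 counts, with a mean of 288 ± 72.5 CPM. Both genes of this pair were lower in replicate 2.

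**Figure D1:**
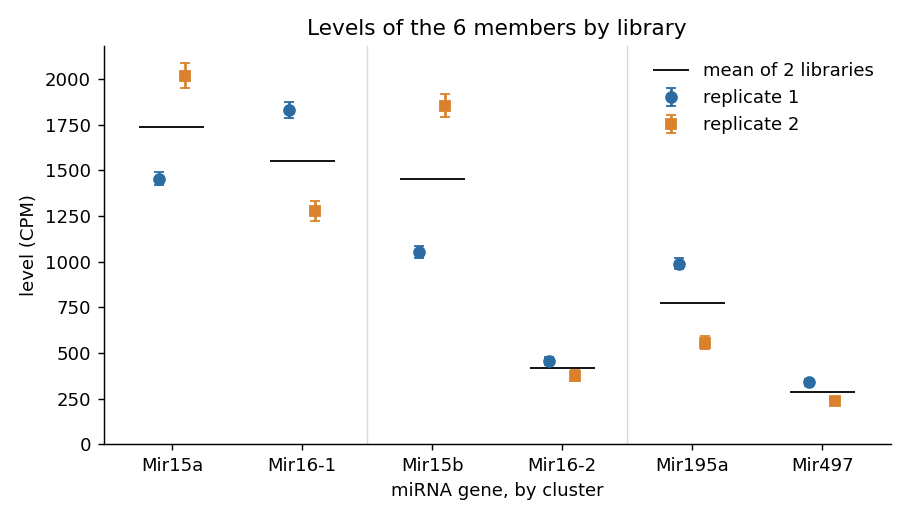
Level in CPM (y axis, from 0) of each member (x axis, ordered by cluster) in replicate 1 (circles) and replicate 2 (squares), with exact 95% intervals for counting error and the mean of the 2 libraries as a bar. Mir15a and Mir15b lie higher in replicate 2, at 2019 and 1855 CPM, and the other 4 members lie higher in replicate 1.

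In order of mean counted level the genes were Mir15a, Mir16-1, Mir15b, Mir195a, Mir16-2 and Mir497. The first 3 were not apart: their ranges over the 2 libraries overlapped, and Mir15a exceeded Mir16-1 by 183 CPM beside an SD of 399 CPM. Mir15b lay above Mir195a, Mir195a above Mir16-2 and Mir16-2 above Mir497 without overlap of the ranges. In all, 12 of 15 pairs of members had ranges apart, and the order of 2 pairs differed between the libraries. The places of Mir16-1 and Mir16-2 are those of their counted reads, which lack the reads that fit both genes. CPM was not divided by length here, because a small RNA read covers a mature form and not the whole precursor. Divided by precursor length, Mir15b (64 bases) came out highest with 2273 CPM per 100 bases, ahead of Mir15a (84 bases) with 2068 and Mir16-1 (93 bases) with 1671.

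The genes of a pair lie in 1 direction within 54 to 241 bases of each other and are known to be cut from common primary transcripts, so the division of counts within a pair was compared between the libraries. Of the counts of Mir15a and Mir16-1, Mir15a held 44.3% in replicate 1 (95% exact interval 43.4 to 45.1%) and 61.3% in replicate 2 (60.0 to 62.5%). Of the counts of Mir15b and Mir16-2, Mir15b held 69.7% (68.6 to 70.9%) and 83.1% (81.9 to 84.3%). In both pairs the share of the miR-15 gene was larger in replicate 2, by 17.0 and 13.4 percentage points, which is more than counting error. Of the counts of Mir195a and Mir497, Mir195a held 74.5% (73.3 to 75.6%) and 70.1% (67.6 to 72.5%), a difference of -4.36 points. The mean shares were 52.8% ± 12.0 for Mir15a, 76.4% ± 9.47 for Mir15b and 72.3% ± 3.09 for Mir195a (SD, n = 2). A share depends on no library total. The miR-16 side of both pairs lacks the reads that fit both miR-16 genes.

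**Figure D2:**
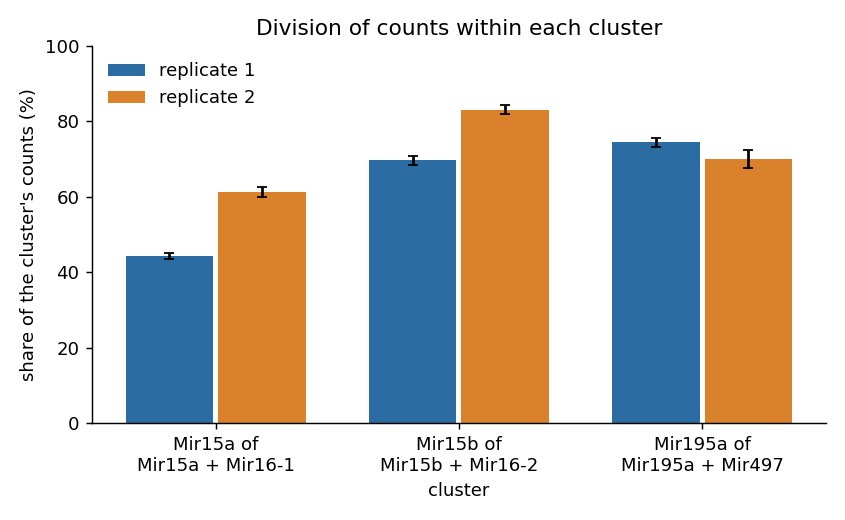
Share of a cluster's counts (y axis, percent, from 0) held by its miR-15 gene or by Mir195a (x axis), in replicate 1 and replicate 2, with exact 95% intervals for counting error. Mir15a rises from 44.3% to 61.3% and Mir15b from 69.7% to 83.1% between replicates 1 and 2, and Mir195a stands at 74.5% and 70.1%.

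The 2 pairs that hold miR-15 and miR-16 differed in their sums. Mir15a and Mir16-1 together were at 3287 CPM in replicate 1 and 3296 CPM in replicate 2, or 53.7% and 52.2% of the family. Mir15b and Mir16-2 together were at 1511 and 2231 CPM, or 24.7% and 35.3% of the family. Mir195a and Mir497 together were at 1327 and 791 CPM, or 21.7% and 12.5%. Across the pairs, Mir15a and Mir15b summed to 2509 and 3874 CPM, and Mir16-1 and Mir16-2 to 2288 and 1653 CPM. The latter sum lacks the reads that fit both genes and is no level of miR-16-5p. The similar totals of the family were thus made of a higher sum of Mir15a and Mir15b and lower sums of the counted Mir16-1 and Mir16-2 reads and of Mir195a and Mir497 in replicate 2.

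Differences between the libraries were set beside those of all miRNA genes. An exact binomial test per gene compared its counts with the ratio of the library totals, over 404 genes that reached 10 counts in 1 library or both. It compares 2 libraries of 1 group, not conditions, and has no replicate check. With a Benjamini-Hochberg adjusted p under 0.05 and a log2 ratio above 1 or below -1, 74 genes (18.3%) were called different and none of the 6 members was. At an adjusted p under 0.05 and any size, 6 of 6 members passed, 2 of them higher and 4 lower in replicate 2. Of all genes tested, 62.1% passed, 29.7% higher and 32.4% lower. The largest member p by the exact test was that of Mir16-2, with an adjusted p of 4.41e-05.

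The log2 ratios of replicate 2 over replicate 1, taken on CPM + 0.5, were 0.82 for Mir15b and 0.47 for Mir15a. They were -0.28 for Mir16-2, -0.52 for Mir16-1, -0.52 for Mir497 and -0.83 for Mir195a. As plain ratios with 95% exact intervals, replicate 2 exceeded replicate 1 by 1.76-fold for Mir15b (1.68 to 1.84) and by 1.39-fold for Mir15a (1.33 to 1.45). Mir195a was 1.78-fold higher in replicate 1 (1.66 to 1.92), Mir16-1 1.43-fold (1.37 to 1.51), Mir497 1.43-fold (1.28 to 1.61) and Mir16-2 1.22-fold (1.11 to 1.33). Their median size of 0.52 was close to the 0.50 of all genes tested, so the members differed about as much as a typical gene. All 6 kept their direction under TMM scaling, which gave 0.71 for Mir15b, 0.37 for Mir15a, -0.39 for Mir16-2, -0.63 for Mir16-1, -0.63 for Mir497 and -0.94 for Mir195a. The coefficient of variation over the 2 libraries ran from 13.7% for Mir16-2 to 39.8% for Mir195a, beside 39.4% from the common dispersion of edgeR over 340 genes, and was 2.20% for the sum of the family.

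**Figure D3:**
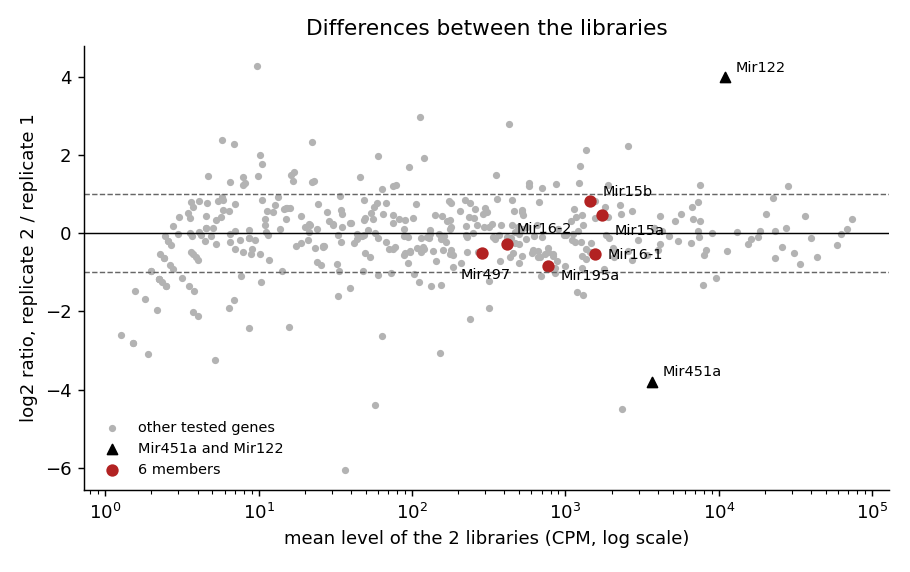
Log2 ratio of replicate 2 over replicate 1 (y axis, on CPM + 0.5) against the mean level (x axis, CPM, log scale) for the 404 tested genes, with the 6 members in red and the red-cell and liver markers as triangles. The members lie between -0.83 and 0.82, inside the dashed lines at 1 and -1, whereas Mir451a and Mir122 lie far outside them.

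Red-cell markers also differed between the libraries, and miR-16 is known as abundant in red blood cells. The red-cell miRNA Mir451a was at 6842 CPM in replicate 1 and 491 CPM in replicate 2, Mir144 at 393 and 84.8 CPM, and Mir486 at 12.4 and 19.6 CPM. Both miR-16 genes and both genes of the Mir195a/Mir497 pair were also higher in replicate 1, and both miR-15 genes were not. The part of blood or of liver tissue in the members' levels was not tested. In bulk tissue, fewer cells of a type and less RNA per cell cannot be told apart.

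To see how often linked genes part, neighbouring miRNA genes on the same strand, within 1000 bases and with at least 10 counts in both libraries, were taken as pairs. This measure was chosen after the values had been seen. Mir15b and Mir16-2 had log2 ratios 1.10 apart, Mir15a and Mir16-1 were 0.99 apart, and Mir195a and Mir497 were 0.31 apart. Over the other 70 pairs the median was 0.43, with quartiles of 0.24 and 0.93. A larger gap than that of Mir15b and Mir16-2 was seen in 14 of these 70 pairs, and a larger one than that of Mir15a and Mir16-1 in 15. Opposite directions, as in both miR-15/16 pairs, were seen in 23 of the 70 (32.9%). Both miR-15/16 pairs thus lay above the upper quartile of the other linked pairs and within their range. Their miR-16 side lacks the reads that fit both miR-16 genes, and genes of other pairs can lack such reads too. How far this moves the gaps was not tested.

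**Figure D4:**
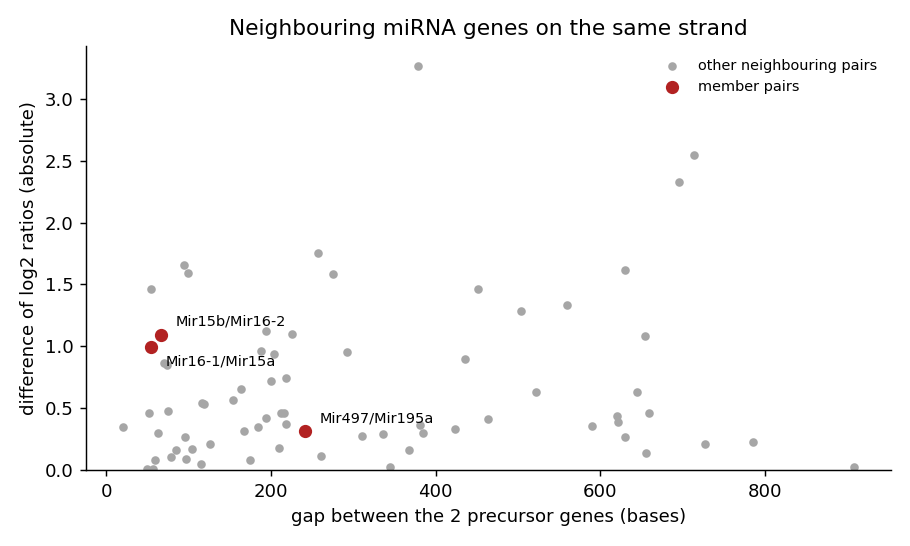
Absolute difference of the log2 ratios of 2 neighbouring miRNA genes (y axis) against the gap between them in bases (x axis), for 73 pairs on the same strand. The Mir15b/Mir16-2 and Mir15a/Mir16-1 pairs lie at 1.10 and 0.99, above the median of 0.43 of the other pairs, and Mir497/Mir195a lies at 0.31.

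The seed of the family is also found in other miRNAs. Of 1738 mature forms in the RefSeq table, those of 11 genes had AGCAGCA at bases 2 to 8, the 6 members and Mir195b, Mir322, Mir6342, Mir6353 and Mir6419. Only Mir322 of these 5 was counted, and the other 4 had no count in either library. Mir322, the mouse counterpart of human miR-424, lies in an X-linked cluster with Mir503. Their 5p forms are shown for comparison, with bases 2 to 8 in capitals.
miR-322-5p: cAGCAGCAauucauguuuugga
miR-503-5p: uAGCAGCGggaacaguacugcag

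Mir322 was at 52879 CPM in replicate 1 and 34419 CPM in replicate 2, from 209485 and 58058 counts. The counts of Mir322 were 8.63 times those of the 6 members together in replicate 1 and 5.45 times in replicate 2. Of the counts of all genes with this seed, the 6 members held 10.4% in replicate 1 (95% exact interval 10.3 to 10.5%) and 15.5% in replicate 2 (15.2 to 15.8%), a mean of 12.9% ± 3.63 (SD, n = 2). These counts are per gene and include 3p forms, which lack the seed, and they leave out the reads that fit both miR-16 genes, so the share of the members is uncertain. Mir503, whose seed ends in G in place of A, was at 865 and 927 CPM, between Mir15b and Mir195a in mean level. Neither Mir322 (log2 ratio -0.62) nor Mir503 (0.10) was called different between the libraries.

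**Figure D5:**
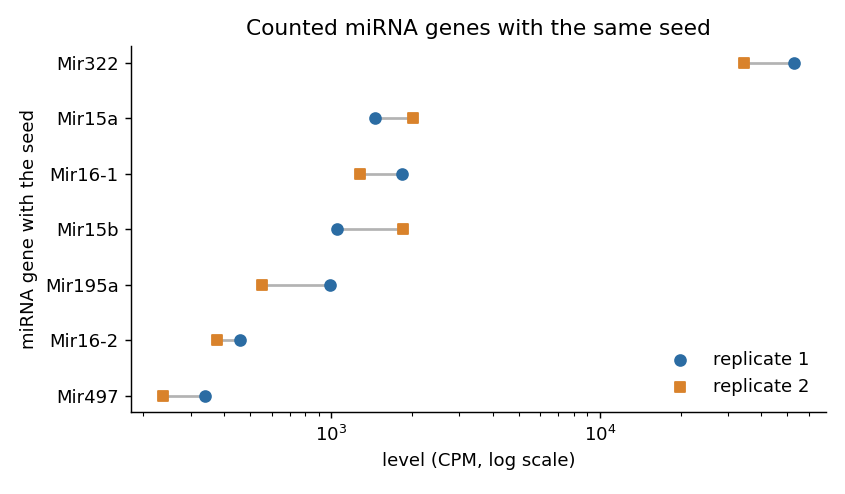
Level in CPM (x axis, log scale) of the 7 counted genes that share the seed (y axis), in replicate 1 (circles) and replicate 2 (squares). Mir322 stands at 52879 and 34419 CPM, and the members lie between 237 and 2019 CPM.

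The strand columns of the tables bear on Mir497. The gene Mir497b is annotated on the opposite strand at chromosome 11, 70234692 to 70234816, and covers all 84 bases of Mir497. Mir497b itself had no count on its own strand in either library. In the either-strand column Mir497 had no count, although it had 1343 and 399 on its own strand, and the opposite-strand entry of Mir497b held the same 1343 and 399. A reading of the either-strand column alone would list the gene at 0. The 5 other members had equal counts in the sense-strand and the either-strand columns. No member had a count on its opposite strand.

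Other miRNAs linked to growth were described from lists. Of 25 genes linked to restraint of the cell cycle, 23 were tested, 4 were called higher in replicate 2 (beside 9.65% of all genes) and none lower (8.66%), with a median log2 ratio of 0.43 beside -0.05 for all genes tested. The restraint list was led by Mirlet7g, Mirlet7i and Mir26b, and those called were Mir34c (log2 ratio 1.72), Mir26a-1 (2.98), Mir26a-2 (1.23) and Mir29b-1 (1.56). Of 18 genes linked to promotion of the cell cycle, 17 were tested, 2 were called higher and 3 lower in replicate 2, with a median of -0.48. That list was led by Mir21a, Mir17 and Mir93; Mir21a (1.22) and Mir222 (1.70) were called higher, and Mir19a (-2.42), Mir19b-1 (-1.92) and Mir363 (-1.02) lower. Mir26a-1, Mir26a-2, Mir29b-1 and Mir19b-1 each share a mature form with another locus, so their counts are uncertain. The lists summed to 226787 ± 1682 CPM for restraint and 40963 ± 12913 CPM for promotion (SD, n = 2), and Mir21a alone was at 17010 and 39571 CPM in replicates 1 and 2. These sums were not ranked against that of the 6 members, since the lists differ in size and reads that fit more than 1 locus are missing from all of them.

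The gene nearest to each member was found by the distance of log2 levels over the 2 libraries, which is a likeness in 2 values only. The nearest to Mir15a was Mir342, at 1392 and 2225 CPM (distance 0.15), and the nearest to Mir15b was Mir423, at 1117 and 1988 CPM (0.13). Mir106b, of the promotion list, was nearest to Mir16-1 with 1692 and 1216 CPM (0.13), and Mir330 was nearest to Mir16-2 with 437 and 368 CPM (0.08). Mir130b was nearest to Mir195a with 1110 and 604 CPM (0.21), and Mir376b to Mir497 with 343 and 242 CPM (0.04). No member was the nearest gene of another.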

How the data were processed

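The authors deposited 1 table of read counts per library, with 3 count columns and 4 summary rows for reads given to no gene. Per the file lists deposited with them, the tables were made on mm10 with annotation M21. The aligner, its version and the read trimming are not given in the sources used here. The strand column with more counts was taken as the sense strand. Summary rows, 66.3% and 74.3% of the reads in replicates 1 and 2, stayed out of library totals; reads that fit more than 1 locus were 27.0% and 25.7%.

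CPM, exact Clopper-Pearson 95% intervals and exact binomial tests were computed in Python 3.11.15 with scipy 1.17.1. Scaling alternatives came from edgeR 4.0.16 (TMM) and DESeq2 1.42.0, and the spread between libraries from edgeR's common dispersion. The test was checked on simulated counts with counting error and no other spread between libraries. The check therefore says nothing about such spread. Genes were named by rule: all members, relatives with the seed, Mir503, genes opposite to a member and the nearest gene of each member. The rule also took 3 leading and all called genes of each growth list, and red-cell and liver markers. Other single markers, Mir103-1, Mir103-2 and Mir107 were named after values had been seen. The members and lists were chosen with earlier results of these data known. Alternatives were other scalings, count columns, filters, thresholds and added CPM, and each library left out. Nothing says that the libraries came from separately prepared RNA beyond the numbers of the males, and the exact binomial p-values measure counting error between 2 libraries only.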

Additional observations from a re-analysis of the deposited data

How the results depend on the processing

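No paired analysis was possible because the series holds 1 group. The direction and call of the 6 single-member log2 ratios were the same under TMM and DESeq2 scaling, in the either-strand column (5 members; Mir497 has no count there) and with CPM + 5. Totals free of red-cell and liver genes also gave the same, but they shift every gene alike and do not bear on blood or liver content. The either-strand column gave 476 CPM for Mir16-2, 0 for Mir497, 6777 CPM for the summed members and 100% for Mir195a in its pair; its smaller total and the lost Mir497 make these shifts. Without Mir16-1 and Mir16-2 the sum was 4251 CPM. The log2 ratio of the summed members was -0.06 under TMM (-0.0622) and DESeq2 scaling (-0.0624), 0.08 (0.0842) with either-strand counts and 0.28 when the miR-16 genes were left out, against 0.04. Alternatives for this ratio and for the share of the seed were added once values had been seen. Genes called different numbered 132 at a log2 ratio over 0.58, among them 2 members, and 251 at any size, against 74. With 2 libraries, leaving 1 out cannot move a mean by more than its SD and shows nothing about stability: the values are those of the single libraries, from 6125 to 6318 CPM for the sum and from 10.4% to 15.5% for the share of the seed. Depth limits Mir497 most, with 399 counts in replicate 2.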

Other observations

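Mir103-1, Mir103-2 and Mir107, a separate miRNA family known from metabolic tissues, carry the letters AGCAGCA at bases 1 to 7 of a mature form, 1 base earlier than the miR-15 and miR-16 family. Mir107 was at 510 CPM in replicate 1 and 1233 CPM in replicate 2, from 2021 and 2080 counts, and its log2 ratio of 1.27 was called different by the exact binomial test. Mir103-2 was at 18.2 and 30.8 CPM and was not called. Mir103-1 had 2 and 6 counts, too few for the test, and it shares a mature form with Mir103-2, so the counts of both are uncertain. They were looked at after the levels of the other genes had been seen.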
